A study of Mus musculus with 41 samples.

Results

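Tuft1, Crybg1 and Aggf1 are 3 mouse genes selected on their signal after 6 h of contact with a Notch ligand, 3 of the 13886 genes with values in the feeder co-cultures. Each was found by its symbol in the first of 3 tables and followed by its Ensembl identifier into the other tables, which held 12984 and 13407 genes. Because the 6 h libraries chose the genes, their 6 h values are given as a description without a test, and tests are kept to the other libraries. Earlier results of these data were known when the genes were chosen, so these tests are not fully independent of that choice.

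MEEC, a wild-type line of mouse embryonic endocardial cells, were profiled by RNA-seq in 41 libraries of 13 groups. In 18 libraries (n = 3 per group), MEEC were seeded at 50% confluency for 6 h or at 25% for 24 h onto OP9 stromal cells at 90% confluency. The OP9 cells expressed GFP or one of the Notch ligands Dll4 and Jag1, and time and seeding density changed together. In 8 libraries (n = 4 per group), MEEC received DMSO or 20 µM RO4929097, a γ-secretase inhibitor, for 24 h and were then placed over OP9-GFP for 6 h. In 15 libraries (n = 3 per group), MEEC grew for 38 h, the last 14 h without serum, on plain wells with DMSO or on wells with rDLL4 or rJAG1, each ligand with DMSO or with 20 µM RO4929097. All MEEC shared 1 genotype and 1 line, and the labels do not say whether the libraries within a group stem from different cultures. The p-values therefore measure the spread between these libraries only, and that spread may be technical.

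Notch receptors are cleaved by γ-secretase after they bind a ligand on a neighbouring surface, and the released intracellular fragment joins the DNA-binding protein RBPJ to switch on targets such as Hes1, Hey1, Hey2 and Nrarp. In the endocardium, which lines the chambers of the heart, Dll4 and Jag1 act at different stages of trabeculation and valve formation. Tuft1 encodes tuftelin, an acidic protein first found in developing tooth enamel and also made in many other tissues. Crybg1, once called Aim1, encodes a large non-lens protein with repeated beta/gamma-crystallin domains. Aggf1 encodes an angiogenic factor with a G-patch and a forkhead-associated domain.

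In the mouse annotation of build GRCm38, all 3 genes lie on the minus strand. Tuft1 (ENSMUSG00000005968, chr3:94612757-94658872) spans 46.1 kb and has 4 coding transcripts of 6 to 13 exons. Crybg1 (ENSMUSG00000019866, chr10:43950636-44148853) spans 198.2 kb, has 2 coding transcripts of 20 to 22 exons and overlaps the measured gene Rtn4ip1, which lies on the other strand. Aggf1 (ENSMUSG00000021681, chr13:95350683-95375352) spans 24.7 kb, has 1 coding transcript of 14 exons and overlaps no other annotated gene.

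A near-copy of part of Tuft1 bears on how its reads can be read. Gm15264 (ENSMUSG00000081355, chr3:94720023-94758116), an annotated unprocessed pseudogene on the same strand, has 6 exons and a transcript of 502 bases. That transcript matched positions 66 to 567 of a Tuft1 transcript of 2631 bases, its first 6 exons, with 7 differing bases and no gap (98.61% identity). The stretch below is shown because it holds 5 of the 7 differences, in capitals. It covers positions 101 to 250 of the Tuft1 transcript, 5′ to 3′, all of it coding (coding starts at position 88), with the bases of Gm15264 aligned to it. Both are spliced transcript sequences of the GRCm38 annotation.
Tuft1: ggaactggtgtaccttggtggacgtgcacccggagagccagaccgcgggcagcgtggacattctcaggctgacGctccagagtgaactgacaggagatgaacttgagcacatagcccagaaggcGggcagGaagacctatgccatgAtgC
Gm15264: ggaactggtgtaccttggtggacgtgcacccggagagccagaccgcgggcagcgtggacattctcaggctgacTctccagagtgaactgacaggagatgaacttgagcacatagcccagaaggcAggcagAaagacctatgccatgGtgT
Of the 472 stretches of 31 bases in the Gm15264 transcript, 323 also occurred in Tuft1 transcripts, so a short read from them cannot be assigned to 1 of the genes with certainty.

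Promoter windows are printed because the 3 genes moved in the same direction in the tests below. RefSeq windows (GRCm38.p6, from 250 bases before to 50 after an annotated start) were at hand for 2 of the 3 members, Crybg1 and Aggf1, and Hey2 is set beside them as a textbook Notch target. The outermost Crybg1 window is chr10:44148779-44149078, that of Aggf1 is chr13:95375308-95375607 and that of Hey2 is chr10:30842734-30843033, all on the minus strand and shown 5′ to 3′. Capitals mark TGGGAA or its reverse complement TTCCCA, the core letters of the RBPJ site.
Crybg1: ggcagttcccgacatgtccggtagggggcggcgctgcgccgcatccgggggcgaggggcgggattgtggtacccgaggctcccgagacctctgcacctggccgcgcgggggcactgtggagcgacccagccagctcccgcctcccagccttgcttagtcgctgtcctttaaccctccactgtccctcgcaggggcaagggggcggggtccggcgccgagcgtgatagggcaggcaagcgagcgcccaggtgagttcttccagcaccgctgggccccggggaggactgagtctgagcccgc
Aggf1: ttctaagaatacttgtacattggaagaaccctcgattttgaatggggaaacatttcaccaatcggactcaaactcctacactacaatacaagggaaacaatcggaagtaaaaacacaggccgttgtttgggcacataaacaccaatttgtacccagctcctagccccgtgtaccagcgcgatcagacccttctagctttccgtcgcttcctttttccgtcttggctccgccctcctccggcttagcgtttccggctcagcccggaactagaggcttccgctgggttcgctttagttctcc
Hey2: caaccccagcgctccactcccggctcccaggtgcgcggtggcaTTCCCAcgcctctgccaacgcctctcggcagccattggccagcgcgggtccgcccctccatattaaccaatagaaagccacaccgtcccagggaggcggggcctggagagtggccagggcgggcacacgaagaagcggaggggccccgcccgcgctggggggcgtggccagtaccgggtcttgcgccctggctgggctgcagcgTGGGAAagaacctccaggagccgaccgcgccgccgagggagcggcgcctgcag
The Hey2 window held the letters at 2 places. The Aggf1 window and the 3 Crybg1 windows held none, which says only that these letters are not in these windows. Among all 32851 promoter windows, 25.6% held them at least once. The outermost Crybg1 window had 71.7% GC and 28 CpG dinucleotides and the Aggf1 window 50.0% and 17, beside medians of 52.7% and 7 over all windows.

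Median depth was 15.2 M reads in the feeder co-cultures, 22.5 M in the inhibitor co-cultures and 18.1 M on recombinant ligand. Between 501 and 3209 reads fell on Tuft1 in a library, 976 to 3551 on Crybg1 and 528 to 2552 on Aggf1. The counting error of a value was 1.68% to 4.47%, below the coefficient of variation within most groups (1.97% to 12.9%). Within groups, each of 45 library pairs differed by more than sampling noise (chi-square per gene 5.45 to 52.55). The highest value involved the third DMSO library of the recombinant ligand experiment, and the comparisons of the members with those DMSO wells are given without it too. In the 6 h feeder groups, on which the genes were chosen, library 2 stood apart from library 1. That pair gave 32.33 over OP9-GFP, 30.63 over OP9-Dll4 and 21.49 over OP9-Jag1, while libraries 1 and 3 gave 5.48, 7.18 and 6.32. Of 20 endothelial markers, 10 or 11 were listed, Kdr, Tek, Nfatc1 and Npr3 among them, while Pecam1 and Cdh5 had no values to analyse here. The summed signal of the 7 or 8 listed markers of OP9 stroma overlapped between wells with feeder cells (760 to 1762) and without them (754 to 1299), so the lists do not measure how much RNA came from the feeder. Jag1 signal did not single out the Jag1 feeder. At 6 h it was 51.2 ± 4.97 over OP9-Jag1 and 49.2 ± 10.1 over OP9-Dll4 (SD, n = 3). The 24 h values were 65.6 ± 3.38 and 59.6 ± 1.91. Over OP9-GFP the Jag1 signal was 35.1 ± 7.32 at 6 h and 42.8 ± 3.31 at 24 h. Without feeder cells it was 31.7 ± 7.07 in DMSO wells and 84.8 ± 14.4 on rJAG1. Dll4 had no values to analyse here, so the Dll4 feeder could not be checked in this way. In co-culture, RNA of feeder cells and of MEEC cannot be told apart, and in bulk RNA fewer cells and less RNA per cell cannot be told apart either.

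After 6 h over ligand-bearing feeders, every ligand library lay above every OP9-GFP library for each of the 3 genes, the pattern they were chosen for. Normalized signal is given throughout, a read count scaled by the authors to a common library size. Tuft1 stood at 73.5, 72.9 and 67.7 over OP9-GFP, at 107, 95.7 and 103 over OP9-Dll4 and at 129.6, 127 and 125 over OP9-Jag1, in order of replicate number. The 3 groups of Tuft1 did not overlap, with Jag1 highest. Crybg1 stood at 118, 112 and 137 over OP9-GFP, at 149.8, 146 and 165 over OP9-Dll4 and at 165, 168 and 193 over OP9-Jag1. Its Dll4 and Jag1 groups overlapped. Aggf1 stood at 89.4, 89.6 and 94.3 over OP9-GFP, at 119, 119 and 131 over OP9-Dll4 and at 121, 126 and 143 over OP9-Jag1. Here too the 2 ligand groups overlapped.

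On the log2(signal + 1) scale, the 6 h difference between OP9-Jag1 and OP9-GFP was 0.82 ± 0.07 (SE) for Tuft1, 0.52 ± 0.08 for Crybg1 and 0.50 ± 0.08 for Aggf1. The corresponding Dll4 differences were 0.51 ± 0.07, 0.33 ± 0.08 and 0.42 ± 0.08. All genes together gave 4.56% whose Jag1 libraries lay above the controls without overlap and 3.28% whose Dll4 libraries did. These 2 shares are background only, since the choice of the genes fixed the members' place among them. Between OP9-GFP at 24 h and at 6 h, the signal differed by -0.12 for Tuft1, -0.42 for Crybg1 and -0.55 for Aggf1 (log2 scale), a description because the 6 h controls took part in the choice. The time groups overlapped for Tuft1 alone among the 3. Of all genes, 19.0% were lower at 24 h without overlap and 18.7% higher.

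**Figure D1:**
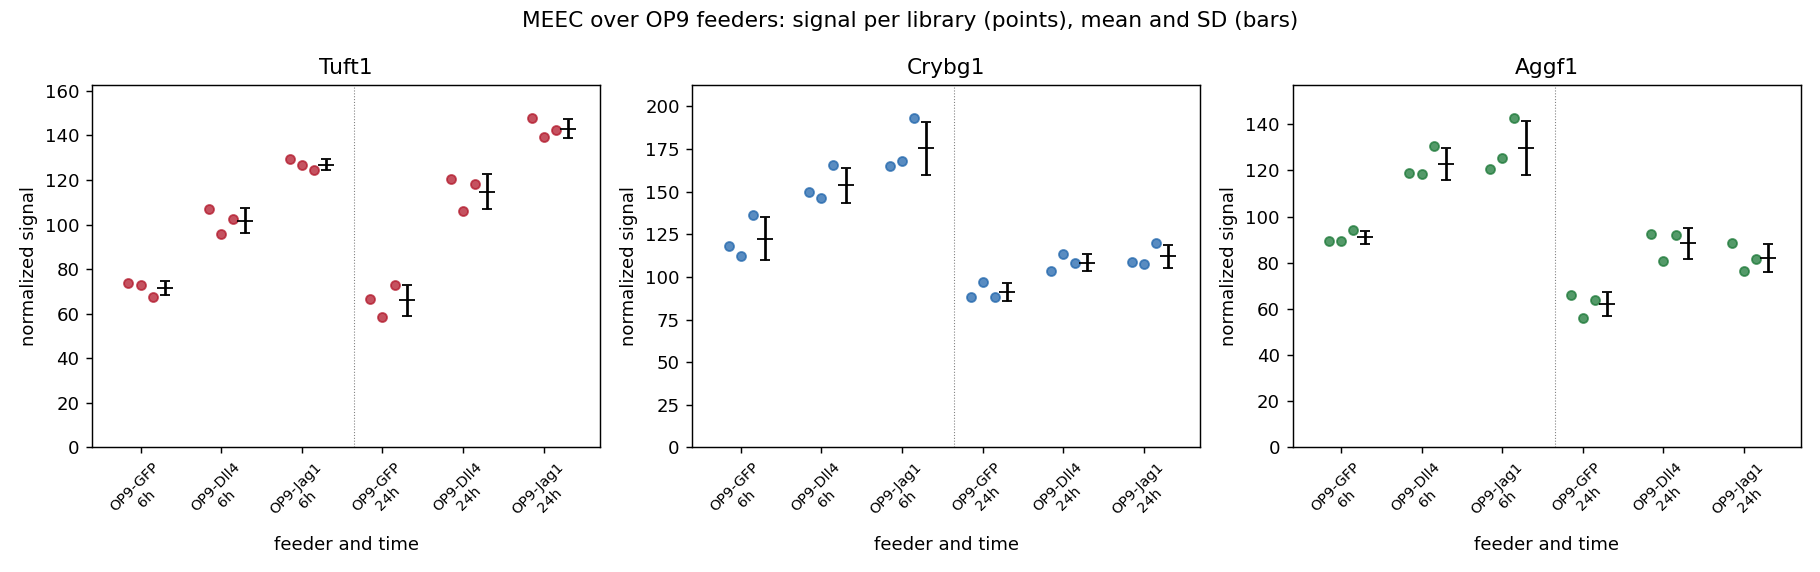
Normalized signal (vertical axis, linear from 0) of Tuft1, Crybg1 and Aggf1 in MEEC over OP9-GFP, OP9-Dll4 and OP9-Jag1 feeders at 6 h and 24 h. Points are single libraries and bars are mean and SD (n = 3). Tuft1 was highest over OP9-Jag1 at 24 h (139 to 148), while the signals of Crybg1 and Aggf1 over ligand were lower at 24 h than at 6 h.

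At 24 h, in libraries outside the 6 h selection, Tuft1 rose about 2.17-fold over OP9-Jag1 and 1.74-fold over OP9-Dll4. Aggf1 rose 1.33-fold and 1.43-fold, and Crybg1 rose 1.23-fold over OP9-Jag1. The Tuft1 signal was 66.5, 58.6 and 72.7 over OP9-GFP, 120.5, 106 and 118 over OP9-Dll4 and 148, 139 and 142 over OP9-Jag1. Its 3 groups did not overlap and stood in the same order as at 6 h. The log2 difference of Tuft1 was 1.11 ± 0.08 for OP9-Jag1 (adjusted p = 5.3e-05, limma with Benjamini-Hochberg adjustment over 13272 genes) and 0.79 ± 0.08 for OP9-Dll4 (adjusted p = 0.0014). By p, Tuft1 ranked 3 and 4 among all genes in these 2 tests, and it kept both calls whichever library was left out.

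Aggf1 gave 66.1, 56.1 and 63.6 over OP9-GFP, 92.4, 80.7 and 92.0 over OP9-Dll4 and 88.6, 76.4 and 81.6 over OP9-Jag1. Both ligand groups lay above the control group, and they overlapped each other. The differences were 0.40 ± 0.08 for Jag1 (adjusted p = 0.022) and 0.51 ± 0.08 for Dll4 (adjusted p = 0.015) on the log2 scale. The Jag1 call of Aggf1 was lost without OP9-GFP library 2 or 3 or OP9-Jag1 library 1 or 3 (adjusted p 0.051 to 0.1), and the Dll4 call without OP9-Dll4 library 1 or 3 or OP9-GFP library 2 (0.063 to 0.08).

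Crybg1 gave 88.1, 96.9 and 88.2 over OP9-GFP, 103, 113 and 108 over OP9-Dll4 and 109, 108 and 119.7 over OP9-Jag1. Neither ligand group overlapped the controls, though the closest libraries were near each other. Its difference for Jag1 was 0.30 ± 0.06 (adjusted p = 0.031), a call lost without OP9-GFP library 1 or 3 or OP9-Jag1 library 1 or 3 (0.073 to 0.12) and in a fit of all 18 co-culture libraries (0.076). For Dll4 the difference of Crybg1 was 0.25 ± 0.06 (adjusted p = 0.12; blocked by replicate number, 0.009). Among all genes, 1.40% were called higher over OP9-Jag1 at 24 h and 0.445% over OP9-Dll4, beside 3 and 2 of the 3 members. Higher without overlap were 8.72% of all genes over OP9-Jag1 and 6.96% over OP9-Dll4. The comparisons share the OP9-GFP libraries. In the OP9-Dll4 libraries at 24 h the summed signal of 7 listed cardiomyocyte markers was 55.5 to 87.0, against 37.9 to 43.2 over OP9-GFP, with Myh7 at 96 to 265 reads against 0 to 2; the part of those transcripts in the Dll4 results was not tested. The summed signal of 11 listed endothelial markers was lower in both ligand groups at 24 h. It was 145 to 159 over OP9-Dll4 and 143 to 157 over OP9-Jag1 against 174 to 178 over OP9-GFP. By gene the list did not shift as a whole. With each ligand 6 of the 11 had a log2 difference above 0 (median 0.01 for Jag1 and 0.03 for Dll4), with Flt1 called higher and Cd34 lower. The part of the difference in these sums was not tested.

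Between the 2 feeders at 24 h, limma called none of the 3 genes, beside 0.0301% of all genes in either direction. The log2 difference of Dll4 minus Jag1 was -0.32 for Tuft1 (95% interval -0.49 to -0.15, adjusted p = 1), -0.05 for Crybg1 (-0.18 to 0.09) and 0.10 for Aggf1 (-0.07 to 0.28). The Tuft1 groups did not overlap, and 3.10% of all genes were likewise lower over OP9-Dll4 without overlap. Blocked by replicate number, the adjusted p of Tuft1 was 0.012. At an unadjusted p under 0.05 the test passed 358 genes and at the adjusted threshold 4, or 2 with edgeR on recovered reads, with Tuft1 at rank 13 by p as the 1 member that passed unadjusted.

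On recombinant ligand, where no feeder cells were present, all 3 genes rose with both ligands. Tuft1 rose 4.09-fold on rJAG1 and 2.81-fold on rDLL4, Aggf1 1.77-fold and 1.44-fold, and Crybg1 1.27-fold and 1.29-fold. The Tuft1 signal was 42.8, 40.2 and 38.6 in DMSO wells, 119, 109 and 114 on rDLL4 and 159.6, 175 and 163 on rJAG1. These 3 groups were far apart and in the same order as over the feeders. The difference of Tuft1 was 2.01 ± 0.07 for rJAG1 (adjusted p = 9.8e-11, limma over 13407 genes) and 1.47 ± 0.07 for rDLL4 (adjusted p = 9.2e-09). In both tests Tuft1 had rank 1 by p among all genes listed.

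Aggf1 gave 45.2, 45.1 and 43.2 in DMSO, 69.1, 63.3 and 59.9 on rDLL4 and 85.2, 77.2 and 73.5 on rJAG1. No 2 of these groups overlapped. Its difference was 0.81 ± 0.07 for rJAG1 (adjusted p = 3.1e-06) and 0.51 ± 0.07 for rDLL4 (adjusted p = 0.00067), and each call held whichever library was left out. Crybg1 gave 75.4, 72.4 and 81.3 in DMSO, 96.2, 100.3 and 99.8 on rDLL4 and 103, 85.9 and 102 on rJAG1. The second rJAG1 library lay close to the third DMSO library, without overlap. Its difference was 0.34 ± 0.08 for rJAG1 (adjusted p = 0.012) and 0.37 ± 0.08 for rDLL4 (adjusted p = 0.017). The first call of Crybg1 was lost without DMSO library 2 or rJAG1 library 1 or 3 (adjusted p 0.052 to 0.062), and the second without DMSO library 1 or 2 or any 1 rDLL4 library (0.052 to 0.078). Both calls of Crybg1 were also lost when only the 2 groups compared were fitted (adjusted p = 0.12 for rJAG1 and 0.054 for rDLL4). Without the third DMSO library, the differences for rJAG1 were 1.97 for Tuft1, 0.38 for Crybg1 and 0.78 for Aggf1, and those for rDLL4 were 1.44, 0.41 and 0.49, each called. Of all genes, 4.83% were called higher on rJAG1 and 2.45% on rDLL4, beside all 3 members in each. Higher without overlap were 10.5% of all genes on rJAG1 and 8.45% on rDLL4. The 2 comparisons share the DMSO wells. The summed signal of the 10 listed endothelial markers was 160 to 177 on rJAG1 and 189 to 266 in DMSO. By gene, 5 of the 10 had a log2 difference above 0 on rJAG1 (list median -0.07), and Cd34 alone was called, lower. The part of the difference between these sums in the results was not tested.

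**Figure D2:**
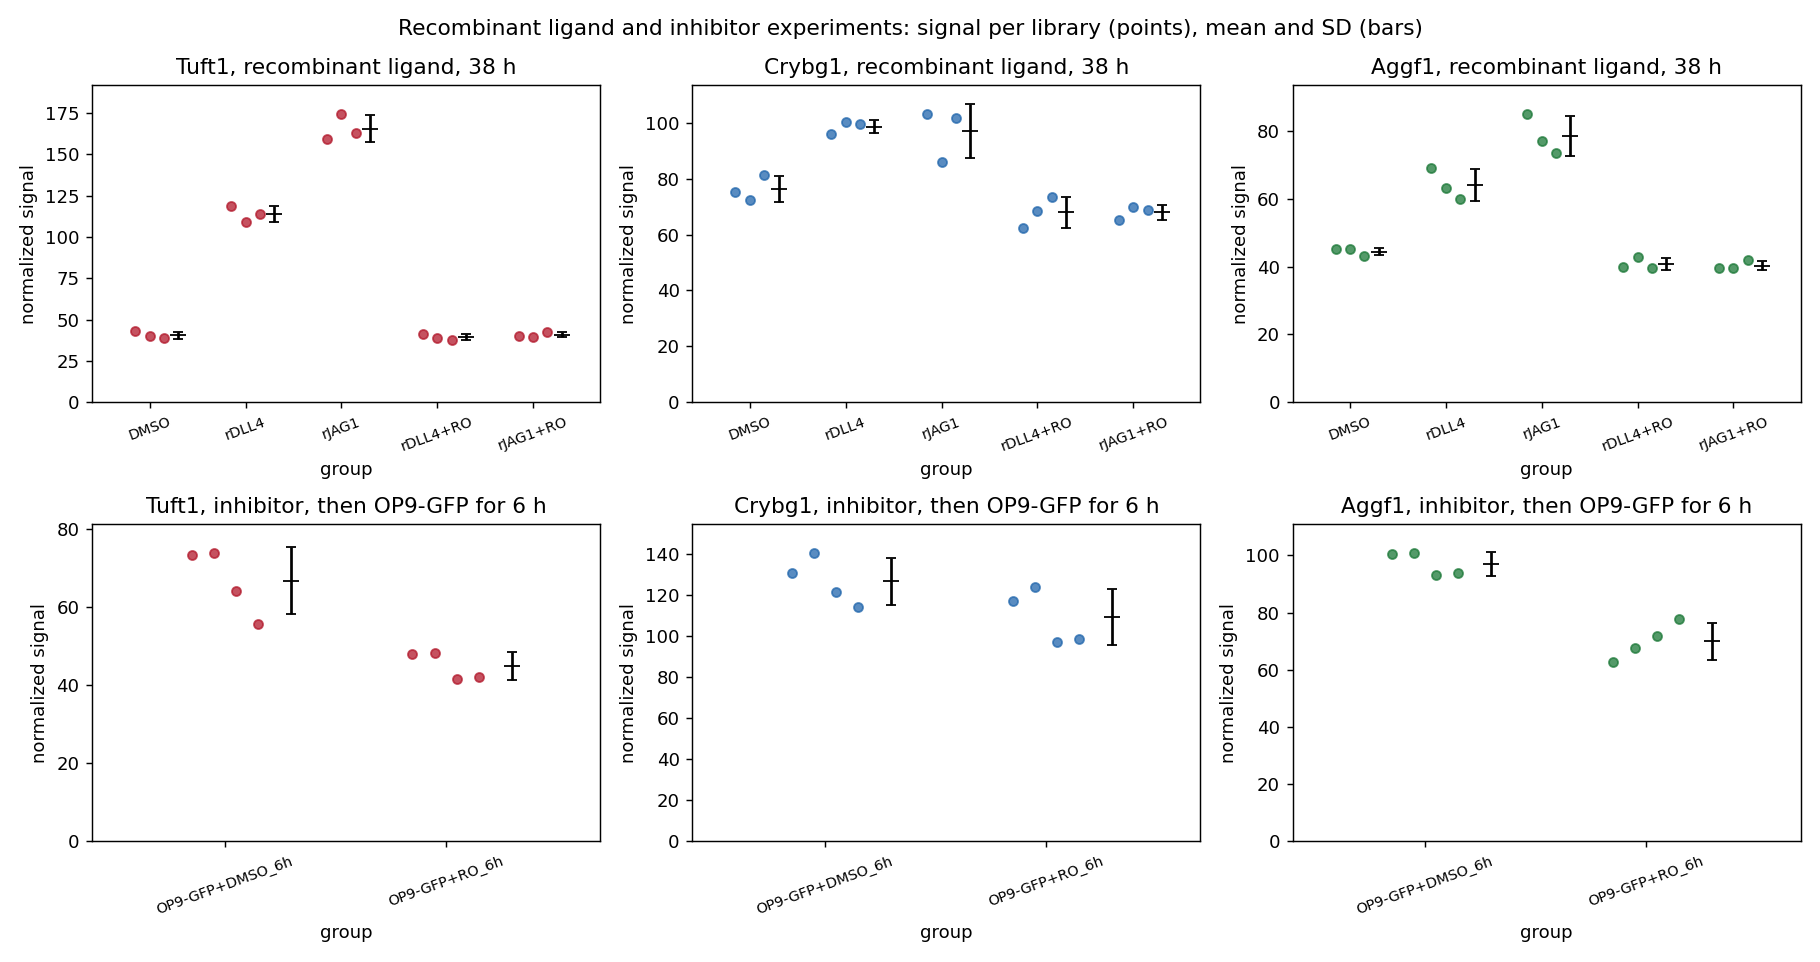
Normalized signal (vertical axes, linear from 0) of the 3 genes, with recombinant ligand experiment groups in the upper row (n = 3) and the 2 inhibitor co-culture groups in the lower row (n = 4). Points are libraries and bars are mean and SD. Tuft1 on rJAG1 plus RO4929097 (39.6 to 42.6) lay within a few units of the DMSO wells (38.6 to 42.8).

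Between the 2 recombinant ligands, Tuft1 was the member that passed the test. Its signal was lower on rDLL4 than on rJAG1 by a log2 difference of -0.54 ± 0.07 (adjusted p = 0.0028, rank 3 of 13407), a test that called 0.127% of all genes lower. Aggf1 differed by -0.29 ± 0.07 (95% interval -0.44 to -0.14, adjusted p = 0.16) although its groups did not overlap. Of all genes, 5.98% were lower on rDLL4 without overlap. Crybg1 differed by 0.03 ± 0.08 (-0.14 to 0.20, adjusted p = 0.96). The recombinant DLL4 carried a His tag and the JAG1 an Fc tag, and coating amounts are not given in the sources used here, so ligand, tag and amount cannot be told apart. The DMSO control wells were plain, so in the tests of ligand against DMSO the ligand, its tag and the coating cannot be told apart either.

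All 3 genes fell when RO4929097 was added to either recombinant ligand. With rJAG1 plus RO4929097, Tuft1 gave 40.2, 39.6 and 42.6, Crybg1 65.1, 69.8 and 69.0, and Aggf1 39.6, 39.5 and 41.9, every one of them below the libraries on rJAG1 alone. The log2 difference was -2.00 ± 0.07 for Tuft1 (adjusted p = 1.1e-10), -0.50 ± 0.08 for Crybg1 (0.00033) and -0.94 ± 0.07 for Aggf1 (2.7e-07). With rDLL4 plus RO4929097, Tuft1 gave 41.3, 38.6 and 37.7, Crybg1 62.2, 68.4 and 73.4, and Aggf1 39.9, 42.9 and 39.7. These libraries too lay below all libraries on rDLL4 alone. The difference was -1.52 ± 0.07 for Tuft1 (adjusted p = 3.1e-09), -0.53 ± 0.08 for Crybg1 (0.00038) and -0.64 ± 0.07 for Aggf1 (3e-05). These 6 calls held whichever library was left out, and Tuft1 had rank 1 by p in both tests. Among all genes 8.78% were called lower with the inhibitor on rJAG1 and 5.76% on rDLL4. Lower without overlap were 17.7% of all genes on rJAG1 and 17.6% on rDLL4. The summed signal of 8 listed stromal markers was 1105 to 1299 in the wells with inhibitor and 754 to 1007 in those with ligand alone. That of the 10 listed endothelial markers was 210 to 233 on rJAG1 plus RO4929097 against 160 to 177 on rJAG1, and 232 to 245 on rDLL4 plus RO4929097 against 181 to 221 on rDLL4. Although both endothelial sums rose, 6 of the 10 markers had a log2 difference above 0 with inhibitor on rJAG1 (list median 0.02) and 3 on rDLL4 (-0.15). The part of these differences in the results was not tested.

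Against DMSO wells, limma called none of the 3 genes on ligand plus inhibitor, where 0.940% (rJAG1) and 1.40% (rDLL4) of all genes were called in either direction. None of the 3 passed an unadjusted p of 0.05 or edgeR's adjusted threshold. For Tuft1 the difference was 0.01 on rJAG1 plus RO4929097 (95% interval -0.13 to 0.15) and -0.05 on rDLL4 plus RO4929097 (-0.19 to 0.09). Crybg1 differed by -0.16 (-0.34 to 0.01, adjusted p = 0.55) and -0.17 (-0.34 to 0.00, adjusted p = 0.44). Aggf1 differed by -0.14 (-0.29 to 0.02, adjusted p = 0.6) and -0.12 (-0.27 to 0.03, adjusted p = 0.56). Crybg1 on rJAG1 plus RO4929097 lay below DMSO without overlap, at 69.8 or less against 72.4 or more. Of all genes, 6.71% did so on rJAG1 plus RO4929097 and 7.04% on rDLL4 plus RO4929097. All Aggf1 libraries with ligand plus inhibitor lay below all DMSO libraries, whose lowest was 43.2, in the third library, against 42.9 at the top of the others. Without that library, the differences on rJAG1 plus RO4929097 were -0.02 for Tuft1, -0.12 for Crybg1 and -0.16 for Aggf1, and those on rDLL4 plus RO4929097 were -0.08, -0.12 and -0.14, with none of the 3 genes called. DMSO wells with RO4929097 and no ligand were not among the groups. The inhibitor effect on rDLL4 minus that on rJAG1 was 0.48 ± 0.09 for Tuft1 (adjusted p = 0.19, rank 8), -0.03 ± 0.11 for Crybg1 and 0.31 ± 0.10 for Aggf1 (adjusted p = 1 for both), in a test that called 0.0149% of genes. At an unadjusted p under 0.05 Tuft1 and Aggf1 would pass, and edgeR called none of the 3.

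Co-cultures of MEEC pretreated with RO4929097 also had lower Tuft1 and Aggf1 signal after 6 h over OP9-GFP, a feeder without added ligand. Tuft1 gave 73.5, 73.9, 64.2 and 55.7 after DMSO and 47.9, 48.2, 41.7 and 42.1 after RO4929097, with no overlap. The log2 difference was -0.55 ± 0.09 (adjusted p = 0.023, limma over 12984 genes). This call of Tuft1 was lost without DMSO library 1, 2 or 3 or RO4929097 library 2, 3 or 4 (adjusted p 0.054 to 0.086). Aggf1 gave 101, 101, 93.0 and 93.7 after DMSO and 62.7, 67.5, 71.9 and 77.9 after RO4929097. Its groups did not overlap either, and the difference of -0.47 ± 0.07 (adjusted p = 0.01) was called whichever library was left out. Crybg1 gave 131, 140.3, 121 and 114 after DMSO and 117, 124, 97.1 and 98.3 after RO4929097, groups that overlapped. Its difference was -0.22 ± 0.09 (adjusted p = 0.44; blocked by replicate number, 0.038). Of all genes 0.685% were called lower with the inhibitor, beside 2 of the 3 members, and 3.31% were lower without overlap. The summed signal of 10 listed endothelial markers was 187 to 196 after RO4929097 and 166 to 179 after DMSO, without overlap. By gene, 5 of the 10 had a log2 difference above 0 (list median -0.01) and 0 were called. The part of the difference between these sums was not tested. The summed signal of 7 listed stromal markers spread widely within each group, and its part was not tested either. It was 913 to 1762 after RO4929097 and 840 to 1670 after DMSO.

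**Figure D3:**
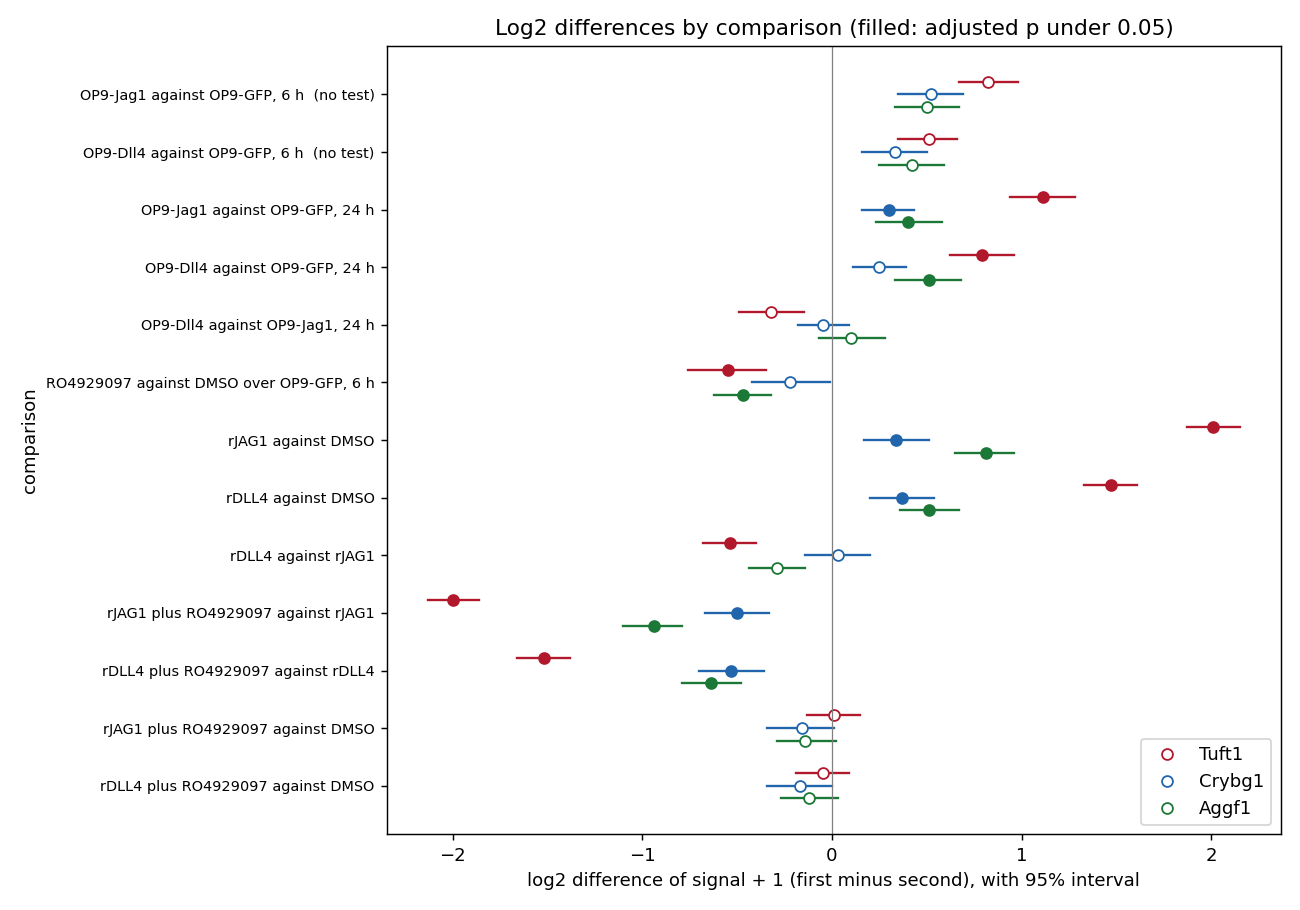
Log2 differences of signal + 1 (horizontal axis, first group minus second) with 95% intervals for Tuft1, Crybg1 and Aggf1 in 13 comparisons. Filled points had an adjusted p under 0.05, and the 2 comparisons at 6 h against OP9-GFP were not tested; Tuft1 reaches from -2.00 with inhibitor on rJAG1 to 2.01 on rJAG1.

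In order of level, the groups of Tuft1 ran from OP9-GFP at 24 h and 6 h, which overlapped, through OP9-Dll4 at 6 h and 24 h, which overlapped, to OP9-Jag1 at 6 h and at 24 h, each apart from its neighbours. Crybg1 ran from OP9-GFP at 24 h, through the overlapping OP9-Dll4 and OP9-Jag1 groups of 24 h and OP9-GFP at 6 h, up to OP9-Dll4 and OP9-Jag1 at 6 h. Aggf1 ordered its groups in the same way as Crybg1 except that Jag1 lay below Dll4 at 24 h, where both overlapped. For Crybg1 and Aggf1 the control at 6 h thus stood level with or above both ligand groups at 24 h. Scaled per kb of annotated exons, the mean signal in DMSO wells was 13.0 ± 0.69 for Tuft1 (SD, n = 3), 12.0 ± 0.31 for Aggf1 and 10.1 ± 0.60 for Crybg1. On rJAG1 the same measure was 53.2 ± 2.54, 21.3 ± 1.62 and 12.9 ± 1.28, so the genes stood further apart than in DMSO.

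Signal assigned to Gm15264 followed that of Tuft1 at a small share. It was 4.85% to 9.97% of the Tuft1 signal over the 41 libraries. Gm15264 rose from 2.63 ± 0.54 in DMSO to 9.87 ± 1.64 on rJAG1 (log2 difference 1.58 ± 0.14, adjusted p = 3.1e-06, limma). When its signal was added to that of Tuft1, an alternative chosen after the likeness was seen, the rJAG1 difference of Tuft1 was 2.00 and the OP9-Jag1 difference at 24 h was 1.09, and no call of Tuft1 changed.

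**Figure D4:**
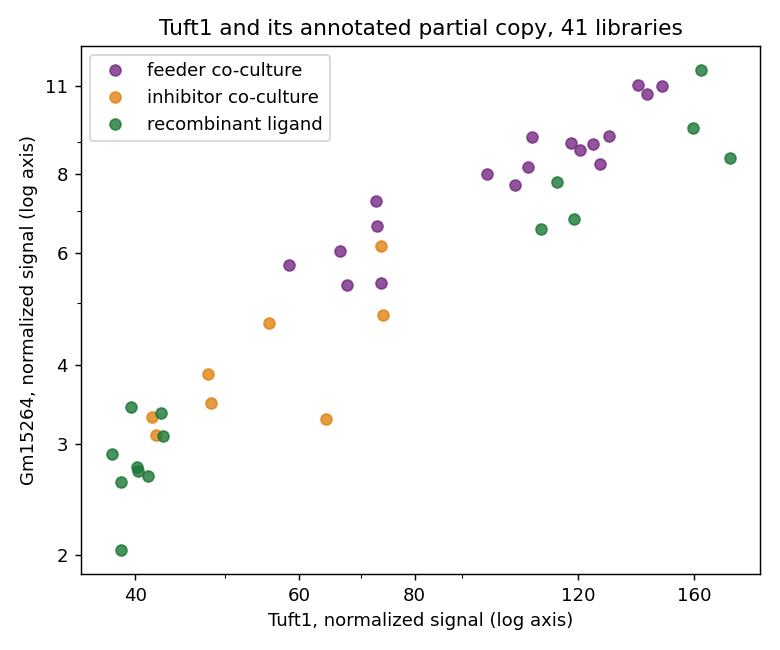
Signal assigned to the pseudogene Gm15264 against that of Tuft1 in each of the 41 libraries, both in normalized signal on log axes, coloured by experiment. Gm15264 lies at 4.85% to 9.97% of Tuft1 throughout.

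Genes near the members were compared as well, with 9.58% of all genes called on rJAG1 in either direction as background. The tests of inhibitor on rJAG1 and on rDLL4, which called 18.4% and 10.7% of all genes, are not described for these neighbours. Within 200 kb of Tuft1, 7 of 24 annotated genes had values, within 200 kb of Crybg1 3 of 10, and within 200 kb of Aggf1 2 of 10. On rJAG1, besides Gm15264, the 1 called neighbour was F2rl1, which encodes the protease-activated receptor PAR2 and lies on the upstream side of Aggf1. F2rl1 rose from 5.88 ± 4.09 in DMSO to 14.0 ± 5.07 on rJAG1 (log2 difference 1.23 ± 0.33, adjusted p = 0.03; 1.68 ± 0.27 without the third DMSO library, where F2rl1 stood at 10.5 against 4.51 or less in the others) and was lower after RO4929097 over OP9-GFP (-0.93 ± 0.13, adjusted p = 0.0082). Its differences at 24 h were 0.85 for Jag1 and 1.00 for Dll4 (adjusted p = 0.056 in both). Tdrkh, a Tudor-domain gene downstream of Tuft1, fell by 0.44 over OP9-Jag1 at 24 h (adjusted p = 0.037, log2 scale), against the direction of Tuft1. Rtn4ip1, whose gene overlaps Crybg1, differed by 0.11 ± 0.17 on rJAG1 (adjusted p = 0.79). The strand setting of the counting is not given in the sources used here, so reads in the overlap of Crybg1 and Rtn4ip1 cannot be assigned with certainty.

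**Figure D5:**
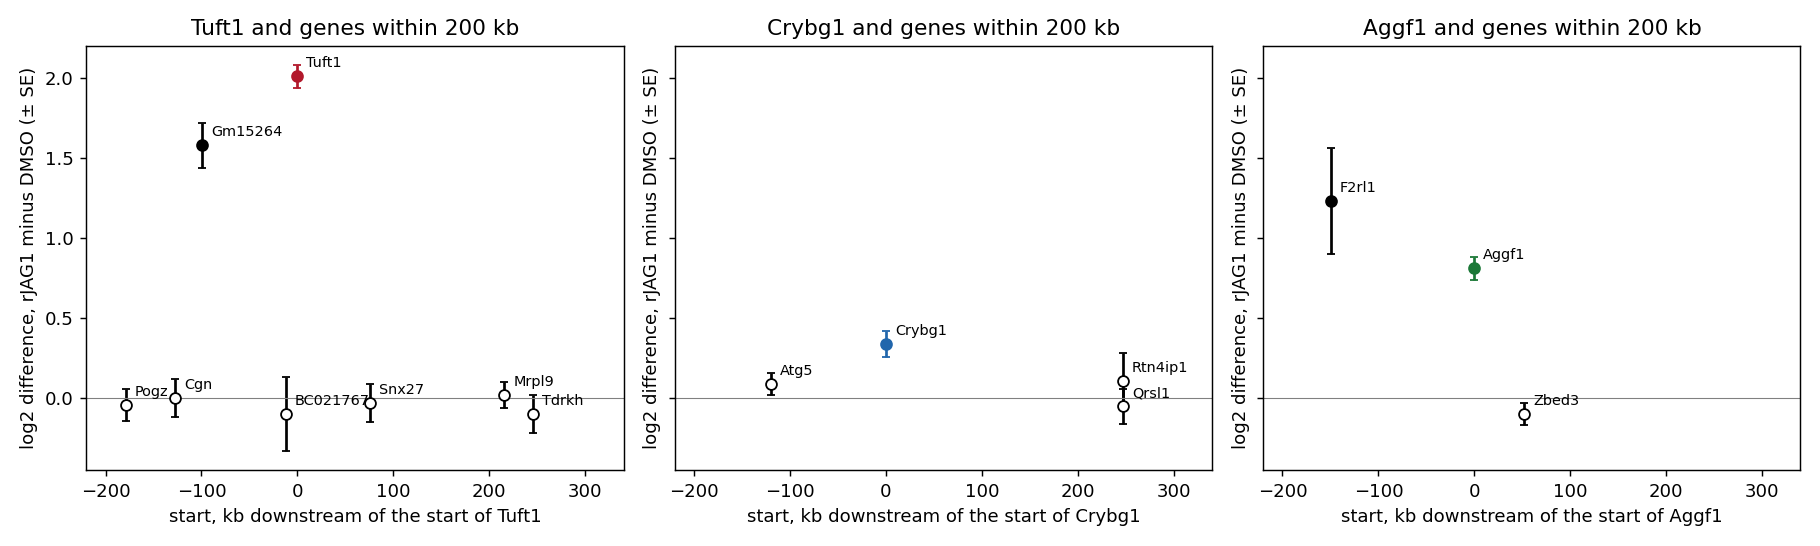
Log2 difference between rJAG1 and DMSO wells (vertical axis, ± SE) for each member, in colour, and the measured genes within 200 kb of it, by the distance of their starts downstream of the member's start in kb. Filled points had an adjusted p under 0.05; among the neighbours these were Gm15264 (1.58) and F2rl1 (1.23).

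The classical Notch targets moved in the direction of the 3 genes. Of 9 listed targets, 5 had a test at 24 h, and 4 rose over OP9-Jag1 (Hey1, Hey2, Notch3 and Nrarp; list median 1.13 beside 0.00 over all genes). On rJAG1 5 of 6 rose, with Hey2, a repressor of the Hairy family, at 6.65 ± 3.61 in DMSO and 35.6 ± 3.87 on rJAG1 (log2 difference 2.35 ± 0.25, adjusted p = 1.4e-05). Hey2 stood at 10.8 in the third DMSO library and at 4.43 and 4.71 in the others, and its difference was 2.71 ± 0.18 without the third. After RO4929097 over OP9-GFP all 4 tested targets fell, Hes1 from 45.3 ± 4.21 to 23.8 ± 3.28 (-0.90 ± 0.10, adjusted p = 0.0029). The median of the list on rJAG1 was 2.31, against a difference of 2.01 for Tuft1.

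Genes that share a family or a field with the members gave mixed counts. Of 22 genes with a G-patch domain, as in Aggf1, limma and edgeR called 0 in each of 12 tested comparisons, with 0 to 3 at an unadjusted p under 0.05 and list medians from -0.06 to 0.04. On rJAG1, 2 of the 22 were called higher by limma without the third DMSO library. Of 10 genes with crystallin domains, as in Crybg1, only 1 or 2 had values, and 0 were called by either tool in those 12 comparisons, with 0 at an unadjusted p under 0.05.

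Of 27 angiogenic factors and receptors, the field of Aggf1, 20 had a test on rJAG1, where 5 rose and 2 fell (median 0.09), beside 4.83% of all genes called higher and 4.76% called lower. Without the third DMSO library, 5 rose and 4 fell (median 0.04), beside 909 and 976 of all 13407 genes. Those that rose included Pgf, a placental growth factor of the VEGF family (0.98 ± 0.25 in DMSO, 3.33 ± 0.31 on rJAG1, log2 difference 1.14 ± 0.15, adjusted p = 0.00013). The vessel-stabilising ligand Angpt1 rose with it (1.48 ± 0.24, adjusted p = 0.0007), and the lymphatic growth factor Vegfd fell by 1.14 (adjusted p = 0.00012). Of 18 enamel and mineralization genes, the field of Tuft1, 5 had a test on rJAG1 and 2 rose, with a median of 0.61. They were Fam20a, a pseudokinase of enamel formation (1.44 ± 0.16, adjusted p = 2.1e-05), and the secreted phosphoprotein Spp1 (1.58 ± 0.16, adjusted p = 8.1e-06). Of 28 hypoxia response genes, included because Tuft1 has been tied to low oxygen, 26 had a test on rJAG1, where 1 rose (Vegfa) and 7 fell, with a median of -0.13, counts that were the same without the third DMSO library.

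By Pearson r across the 18 co-culture libraries, each taken from the mean of its time point, the 3 genes most like Tuft1 were Gm15264 (0.95), Nt5c3 (0.95) and Hey2 (0.94), among 11023 genes. For Aggf1 they were Tec (0.94), Hes1 (0.93) and Dagla (0.92), and for Crybg1 Ksr1 (0.90), Ppp1cc (0.88) and Phlda3 (0.86). Across the 15 recombinant ligand libraries, Dsg2, Hecw1 and Il33 were most like Tuft1 (0.99 each), and Jade1, Dsg2 and Hecw1 most like Aggf1 (0.99 each). Crybg1 had Ppp1r18 (0.98), Dyrk2 (0.97) and Ice1 (0.97) in those libraries. For none of the 3 members did a gene stand among the 3 nearest in both sets. Tuft1 and Aggf1 had an r of 0.87, 0.83 and 0.98 with each other over the 18, 8 and 15 libraries of the 3 experiments. Crybg1 had 0.78, 0.87 and 0.88 with Tuft1 and 0.83, 0.49 and 0.89 with Aggf1. Ranked by r to Tuft1, Aggf1 stood at 35 in the co-culture set and 10 on recombinant ligand, and Crybg1 at 110 and 294. Ranked by r to Aggf1, Crybg1 stood at 28 and 278. These values describe libraries that share groups, replicate numbers and scaling, and the co-culture set includes the 6 h libraries on which the genes were chosen.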

How the data were processed

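Values were the normalized signal that the authors deposited, in a separate table for each experiment. FastQC, cutadapt, RSEM, limma and GRCm38 are named, without versions, per the submitters' processing notes. Each deposited signal was a whole number of reads plus 0.5, divided by a scaled library size. The signal of a single read was set from the smallest value of each library, taken as no reads. Dividing by it and taking off 0.5 returned whole reads for 100% of values (tolerance 0.01 reads). In 11 libraries fewer than 100 low values were present. Symbols came from the GRCm38 annotation, which matched 13863, 12964 and 13384 identifiers and left 23, 20 and 23 unmatched.

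Tests were run on log2(signal + 1) with limma 3.58.1 (mean-variance trend) in R 4.3.3, with Benjamini-Hochberg adjustment over all genes of a table, after a filter that asked for a signal of 1 in at least as many libraries as a group holds. The threshold for a call was an adjusted p under 0.05. The 24 h comparisons used the 9 libraries of 24 h, the inhibitor co-cultures 8 and recombinant ligand 15. A fold on this scale understates changes of low genes. edgeR 4.0.16 on the recovered reads, a replicate block, other pseudocounts, filters and scalings, and leaving out each library were alternatives. The test was checked on simulated data, a check whose outcome is not given here and on which no result rests. Same-numbered libraries deviated together (correlation 0.12 or more in every pair of each comparison within a time point), so the numbers pair the samples. The correlation was 0.05 to 0.16 between OP9-GFP at 24 h and 6 h, where they do not. The main fits left this pairing out, and its effect on calls and counts is given below under the replicate block.

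The members and gene lists were chosen with earlier results of these data known. Named genes were the members, the 3 genes most like each by Pearson r at a mean signal of at least 4, up to 4 genes of a list by adjusted p, genes within 200 kb, and Notch targets. Intervals and SEs cover the spread between libraries, and counting errors cover counting only, as reads copied by PCR are not separate molecules.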

Additional observations from a re-analysis of the deposited data

How the results depend on the processing

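Over 36 tested differences of the members, 260 of 267 values under other settings kept their direction and their side of the threshold. Crybg1 lost its call on OP9-Jag1 at 24 h when all 18 libraries were fitted (0.30, adjusted p = 0.076) and on rJAG1 (0.34, 0.12) and rDLL4 (0.37, 0.054) when only the 2 groups compared were fitted. The difference of Tuft1 between rJAG1 plus RO4929097 and DMSO turned to -0.0009 with quantile normalization. With the replicate number as a block, Crybg1 gained a call over OP9-Dll4 at 24 h (0.25, 0.009) and with RO4929097 over OP9-GFP (-0.22, 0.038), Tuft1 gained one between the feeders at 24 h (-0.32, 0.012), and the pairing changed no other call of a member.

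Counts over all genes rose with the block, from 362 to 1320 for Jag1 and from 102 to 719 for Dll4 at 24 h, 4 to 54 between the feeders, 118 to 427 for RO4929097 over OP9-GFP, 1285 to 2022 for rJAG1, 469 to 868 for rDLL4, 31 to 118 between the recombinant ligands, 1430 to 2315 for inhibitor on rDLL4, and 126 to 389 and 188 to 587 for rJAG1 and rDLL4 with inhibitor against DMSO. With only the 2 groups compared they were 1 between the feeders, 564 for rJAG1, 160 for rDLL4, 8 between the recombinant ligands, and 16 and 22 with inhibitor against DMSO. Genes of a mean signal of at least 4 gave 0 between the feeders and 15 between the recombinant ligands, and edgeR gave 2 and 17. The 2 genes of the difference in inhibitor effect became 0 with a pseudocount of 0.5, a mean signal of at least 4 or edgeR, and 1 with the block.

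Leaving out 1 library at a time, 209 of 240 values kept direction and side of the threshold and 25 lost a call. The ranges were 0.25 to 0.34 for Crybg1 and 0.33 to 0.45 for Aggf1 over OP9-Jag1 at 24 h, 0.44 to 0.57 for Aggf1 over OP9-Dll4, -0.64 to -0.50 for Tuft1 with RO4929097 over OP9-GFP, and for Crybg1 0.29 to 0.42 on rJAG1 and 0.33 to 0.41 on rDLL4. The other 6 changed sign without a call: Crybg1 between the feeders (-0.08 to 0.0022), between the recombinant ligands (-0.06 to 0.08) and in the difference of inhibitor effects (-0.09 to 0.05, with 0.03 without rDLL4 plus RO4929097 library 1), and Tuft1 on rJAG1 plus RO4929097 against DMSO (-0.02 to 0.05). Counts ran from 174 (without OP9-Jag1 library 1) to 382 for Jag1 and from 35 (without OP9-Dll4 library 3) to 99 for Dll4 at 24 h, 2 to 7 between the feeders, 48 (without DMSO library 3) to 104 for RO4929097 over OP9-GFP, 983 to 1885 for rJAG1, 239 (without rDLL4 library 1) to 758 (without DMSO library 3) for rDLL4, 12 to 29 between the recombinant ligands, 929 to 1084 for inhibitor on rDLL4, 46 to 158 and 71 to 301 against DMSO, and 0 to 3 for the difference of inhibitor effects. The cause of these shifts was not tested. Fits of the gene lists and of the other named genes without DMSO library 3 were chosen after seeing the data.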
